A study of Arabidopsis thaliana with 15 samples.

Results

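The late response of Arabidopsis thaliana roots to the auxin NAA was read from 6 of the 15 arrays of the series: 3 arrays of roots exposed to NAA for 6 h and 3 arrays of roots taken before treatment. Both groups were Col-0 seedlings germinated on 10 µM NPA, which blocks polar auxin transport, and 3 days old after germination. The treated seedlings were then moved to 10 µM of NAA, a synthetic auxin, for 6 h. Each array held RNA from 500 root sections cut without the meristem, and the 3 arrays of a group came from 3 independent experiments. Arrays of NAA at 2 h and of naxillin at 6 h, 3 each, served for comparison; naxillin was given at 50 µM and is, per the labels, an inducer of lateral roots that does not act like auxin. A group transferred to plain medium was not part of the design as labelled, so the effects of NAA, of the transfer to fresh medium, of leaving NPA and of elapsed time cannot be told apart in the contrast with roots before treatment.

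Auxin acts by removing Aux/IAA repressor proteins, which frees the response factors they hold and switches on target genes, among them the Aux/IAA genes themselves and the GH3 enzymes that join amino acids to auxin. In the pericycle, the cell layer inside the endodermis, the response switches on LBD transcription factors, and pericycle cells re-enter the cell cycle to found a lateral root. In seedlings kept on NPA this step is held back, and a move to auxin starts it along much of the root at once.

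Values are log2 expression values, so that a difference of 1 is a doubling, written as 2-fold. The 15 arrays had lower quartiles of 4.69 to 4.80 and highest values of 14.58 to 14.83. Levels near the quartile were not shown to lie above background, and changes from or to such levels are differences of array values and not measured folds. Across probe sets, which are not independent replicates, r was 0.993 to 0.9959 between arrays within each of the 2 main groups and 0.8975 to 0.9225 between the groups. Spiked-in poly-A control probe sets averaged 7.33 to 7.44 on the NAA 6 h arrays and 7.59 to 7.63 before treatment. The difference between 3′ and 5′ probe sets of ubiquitin, a sign of RNA quality, was 1.01 to 1.24 after NAA and 0.86 to 0.96 before; that of GAPDH was 0.03 to 0.11 and 0.15 to 0.25. The part of these differences in the results was not tested. PYK10, a beta-glucosidase abundant in roots, lay at 14.27, 14.40 and 14.28 after NAA and at 14.44, 14.39 and 14.47 before. The other root markers of that list were not analysed here, and of 9 root tip markers none had a named probe set.

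The response at 6 h was broad, with 11858 of 22746 probe sets called. Of these, 5181 (22.8% of all) were higher after 6 h of NAA and 6677 (29.4%) were lower at an adjusted p under 0.05, and 2320 (10.2%) and 2234 (9.82%) were also changed at least 2-fold. Scaled on the poly-A controls, 9973 were higher and 4545 lower, so that the excess of falls turned into an excess of rises; that scaling raised the median difference of all probe sets from −0.03 to 0.21. Over the 13356 genes with a named probe set, 21.9% were higher and 26.7% lower, and these 2 shares are the background for every gene group below. The probe sets called are so many that a count of 2 or 3 members says little by itself.

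As deposited, the shares of genes called differed with the level of the gene. Of 4401 genes with a mean below 5 over all arrays, 8.27% were higher and 4.02% lower. From 5 to 7 the shares were 31.9% and 25.2%, and from 9 to 11 they were 24.7% and 46.7%. Of the 27 genes above 13, 18 were lower and 4 higher. With the arrays scaled on the poly-A controls, an alternative for these shares that was added after seeing the data, 55.4% of the genes below 5 were higher and 0.977% lower, and from 9 to 11 the shares were 33.5% and 33.0%. The excess of falls among the better expressed genes was therefore not seen under that scaling, except above 13, where 11 of 27 were lower and 5 higher. Separately, 45 genes rose and 24 fell at least 16-fold. The starting levels of the risers had a median of 5.42 and those of the fallers 10.31. A fall of that size can be read only in a gene that starts well above the lower quartile, so these 2 levels are a description of the genes picked. Quantile normalisation makes the arrays share 1 distribution, and its part in this pattern was not tested.

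**Figure D1:**
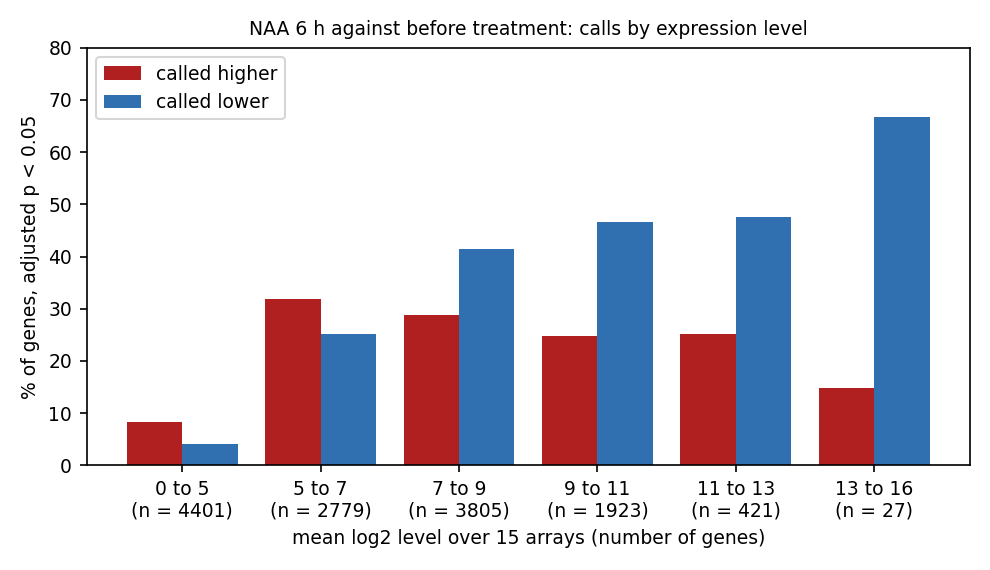
Share of named genes called higher (red) or lower (blue) after 6 h of NAA against before treatment at an adjusted p under 0.05, by the mean log2 level of the gene over all 15 arrays. As deposited, falls outnumber rises in every class from a level of 7 upwards, reaching 66.7% of the 27 genes above 13; under poly-A scaling rises outnumber falls in every class below 13.

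Among the direct targets of auxin, the GH3 gene GH3.1 rose most. It stood at 4.81, 5.05 and 4.46 before treatment and at 12.46, 12.42 and 12.49 after NAA, a difference of 7.68 (SE 0.18, adjusted p = 9.71e-13). The lowest treated array lay far above the highest array before treatment, and the treated arrays lay close together. Its start lay at the lower quartile of the arrays. WES1, which encodes GH3.5, was higher by 4.74 (SE 0.25), and GH3.3 rose by 4.07 (SE 0.34) to 14.54, 14.66 and 14.57, near the top of the scale where a further rise may not register. GH3.17 (0.07) and GH3.9 (0.12) were not called. The count was 3 of 5 GH3 genes higher and 0 lower, with a median of 4.07 against −0.02 over all named genes.

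Of 7 measured Aux/IAA repressor genes, 4 rose and 0 fell (median 1.84). IAA29 went from 4.85, 4.99 and 4.79 to 11.04, 11.29 and 10.79, a difference of 6.16 (SE 0.15, adjusted p = 1.75e-12). IAA30 rose by 4.43 (SE 0.16), IAA20 by 2.69 (SE 0.09) and IAA18 by 1.84 (SE 0.09). None of these groups of arrays overlapped. IAA31, IAA33 and IAA34 lay between −0.10 and −0.04 and were not called. All 4 were already called at 2 h, and 3 were higher at 6 h than at 2 h. IAA20, higher by 0.69 at 2 h (adjusted p = 5.95e-05), stood at 6.07, 6.01 and 6.10 at 2 h and at 7.99, 8.21 and 7.97 at 6 h, a further difference of 2.00 (adjusted p = 1.17e-09). The further difference was 1.20 in IAA29 (adjusted p = 2.47e-05) and 0.38 in IAA18 (adjusted p = 0.00438).

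Measured genes for making auxin were called lower or not at all in the main fit. Of 4 measured YUCCA enzymes, which catalyse the last step of auxin synthesis, YUC6 and YUC2 fell and 0 rose. However, 1 rose with median centring, poly-A scaling, a trended prior or array weights, or without NAA 6 h replicate 2. YUC6 went from 8.12, 8.06 and 8.19 to 5.59, 5.71 and 5.20, a fall of 2.62 on the log2 scale (SE 0.17, adjusted p = 1.92e-08). YUC2 fell by 1.27 (SE 0.11). At 2 h YUC6 and YUC2 were already lower (−2.25 and −1.10), and neither was called between 2 h and 6 h (adjusted p = 0.0925 and 0.236). WAG2, a kinase that steers auxin carriers, rose by 1.22 (SE 0.16) to a level of 5.52.

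All 4 measured regulators of the lateral root rose. PUCHI, an AP2-type factor that shapes the young primordium, read 4.89, 4.68 and 4.74 before treatment and 11.19, 11.48 and 11.36 after NAA, a difference of 6.57 (SE 0.18, adjusted p = 6e-12). It was still rising between 2 h and 6 h, by 3.33 (adjusted p = 1.36e-08). LBD29, which acts in founding the lateral root, rose by 5.69 (SE 0.20) and LBD16, which acts with it, by 3.64 (SE 0.13); neither differed between 2 h and 6 h by this test (0.31, adjusted p = 0.257, and −0.01, adjusted p = 0.955). CR4, the receptor kinase ACR4 of formative divisions, came late: it read 5.36, 5.13 and 5.35 before treatment, 5.45, 5.35 and 5.74 at 2 h and 6.61, 6.56 and 6.99 at 6 h (1.44 against before, SE 0.15, adjusted p = 1.58e-06).

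**Figure D2:**
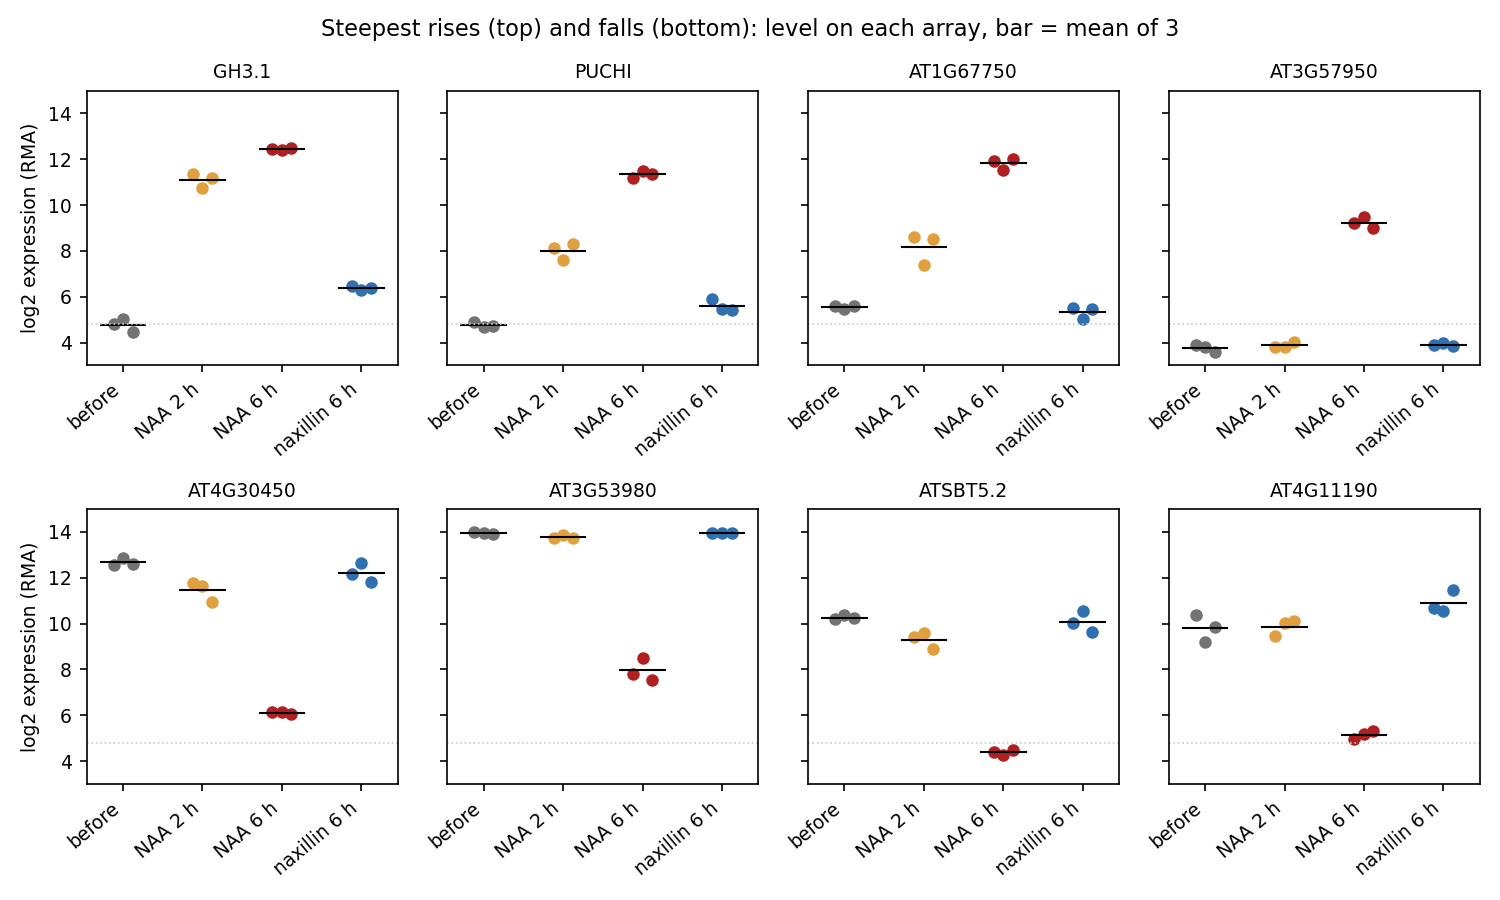
Log2 expression on each array (points) and group mean (bars, n = 3) of 4 of the 12 largest rises (top) and 4 of the 12 largest falls (bottom); the dotted line is the highest lower quartile of any array (4.80). The genes were picked among those whose NAA 6 h arrays do not overlap the arrays before treatment, so that gap is a description. AT3G57950, AT3G53980 and AT4G11190 had not been called at 2 h.

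Most of the steepest changes belong to genes known here by their locus tag alone, for which the files give no function. AT1G30760 rose by 6.74 (SE 0.40), AT1G67750 by 6.28 (SE 0.25), AT4G37290 by 6.04 (SE 0.19), AT5G47550 by 5.95 (SE 0.15), AT3G15357 by 5.61 (SE 0.34), AT1G04680 by 5.61 (SE 0.31) and AT4G37295 by 5.58 (SE 0.13). Of these, AT1G67750 was the 1 measured gene of a list of 11 for wall remodelling and cell separation over the primordium. AT3G57950 read 3.87, 3.79 and 3.56 before treatment, 3.79, 3.82 and 4.03 at 2 h and 9.24, 9.47 and 9.001 at 6 h. It rose by 5.49 (SE 0.12, adjusted p = 8.25e-13), all of it after 2 h, from a level below the lower quartile. Of the 45 genes at least 16-fold higher, 40 were also called higher than at 2 h and 7 had moved by less than 2-fold at 2 h. The count of 40 is a description, since the genes were picked for high values on the same NAA 6 h arrays.

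Wall gene families held called genes in both directions. Of 19 expansins, which loosen the wall for growth, 7 rose and 4 fell (36.8% and 21.1%). EXPA15 read 9.39, 8.42 and 9.47 before treatment, 8.19, 8.06 and 9.20 at 2 h and 11.74, 11.64 and 11.79 at 6 h, a rise of 2.63 (SE 0.50, adjusted p = 0.000435). EXPA4 rose by 2.46 (SE 0.20), EXPA20 by 2.18 (SE 0.16) and EXPA9 by 2.02. The falls included the root hair expansins EXPA7 and EXPA18, by 1.13 (SE 0.29) and 1.16 (SE 0.31), and EXLB1, by 2.05 (SE 0.19). Of 15 family 9 glycosyl hydrolases, the family of plant endoglucanases, 3 rose and 2 fell (20.0% and 13.3%, both under the shares among all named genes), or 7 and 1 under poly-A scaling. GH9C2 rose by 2.85 (SE 0.45) and GH9C1 fell by 1.32 (SE 0.33). Without NAA 6 h replicate 2, or without replicate 1 before treatment, 1 of that family fell. Of 10 xyloglucan endotransglucosylases, which cut and rejoin xyloglucan, 1 rose and 3 fell (10.0% and 30.0%). The counts were 3 and 3 under poly-A scaling. Without dim probe sets 0 rose, but that setting takes dim members out of the test, so this need not be a lost call. XTH32 went from 8.60, 7.89 and 8.48 to 5.09, 5.28 and 5.46 (adjusted p = 6.23e-06). Among 23 genes of the TBL family, which acetylates wall polymers, 2 rose and 9 fell (8.7% and 39.1%); TBL38 fell by 2.12 (SE 0.16) and TBL36 rose by 1.46 (SE 0.17). The count of TBL rises was 4 without NAA 6 h replicate 2 and 1 without NAA 6 h replicate 1 or without replicate 2 before treatment; under poly-A scaling it was 6, beside 7 falls.

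Genes for making ribosomes rose nearly without exception. All 24 measured genes on a list of ribosome assembly factors were higher (median 2.64), and so were 123 of 131 cytosolic ribosomal proteins (93.9%, median 1.43), with 0 lower in either list. The 8 ribosomal protein genes that were not called had levels of 3.72 to 5.03 before treatment. AT1G23410, on the ribosomal protein list, read 5.48, 5.35 and 5.44 before treatment and 9.65, 9.73 and 10.38 after NAA, a rise of 4.50 (SE 0.25, adjusted p = 4.7e-09). RBL (REBELOTE), a nucleolar factor, went from 7.24, 6.79 and 7.34 to 10.28, 10.28 and 10.38, a rise of 3.19 (SE 0.27). The ribosomal protein count stayed between 122 and 124 when each array was left out. These 2 lists were written by locus tag from general knowledge, and the files do not annotate their members.

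Subunits of the RNA polymerases rose as a whole as well: all 12 measured were higher (median 1.13, lowest 0.43). The largest rises were those of NRPA1 and NRPA2, the 2 largest subunits of RNA polymerase I, which transcribes ribosomal RNA. NRPA1 read 7.24, 6.99 and 7.14 before treatment, 7.82, 8.10 and 8.46 at 2 h and 9.73, 9.64 and 9.65 at 6 h, a rise of 2.55 (SE 0.18, adjusted p = 4.75e-08). NRPA2 rose by 2.16 (SE 0.21). NRPC2 and NRPC1 of RNA polymerase III, which makes transfer RNA and the 5S ribosomal RNA, rose by 1.82 (SE 0.22) and 1.61 (SE 0.13). Of 10 named pentatricopeptide proteins, which handle RNA in mitochondria and plastids, 9 rose (median 0.45), PPR596 by 9.83-fold (log2 SE 0.40) and PPR336 by 4.89-fold (log2 SE 0.25). Their median level before treatment was 4.68. Without dim probe sets, a setting that takes dim members out of the test, 4 were called higher.

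Genes of the cell cycle had started to rise by 6 h. All 9 measured genes of the spindle checkpoint, the Aurora kinases and the centromere were higher (median 1.60, lowest 1.30). AUR3, an Aurora kinase of mitotic chromosomes, read 5.53, 5.54 and 5.47 before treatment, 5.20, 5.15 and 5.36 at 2 h and 7.78, 7.30 and 8.09 at 6 h, a rise of 2.21 (SE 0.16, adjusted p = 5.05e-08). Haspin, a kinase that marks histone H3 at mitosis, rose by 2.05 (SE 0.13) and BUB3.2 of the spindle checkpoint by 2.01 (SE 0.16). HTR12, the centromeric histone H3, rose 2.58-fold (log2 SE 0.12). Of 18 genes of DNA replication and repair, 15 rose and 0 fell (83.3%, median 1.13). PRL, the MCM7 subunit of the replicative helicase, went from 7.17, 6.46 and 7.23 to 9.48, 9.51 and 9.54, a rise of 2.56 (SE 0.24, adjusted p = 6.7e-07). POLA3 of the DNA primase rose by 2.42 (SE 0.25), TOPII, a DNA topoisomerase, by 1.99 (SE 0.25), and PSF2 of the GINS complex by 1.75 (SE 0.13). RAD4, RECQ4B and RAD51B, between −0.25 and 0.00, were not called. The cell cycle inhibitor SIM was not called (−0.15, SE 0.12). Of 9 CHR chromatin remodelling factors 4 rose (44.4%), CHR24 by 1.13 (SE 0.12), and 0 fell. CHR24 also stands among the replication and repair genes. Under poly-A scaling 7 of the 9 rose.

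**Figure D3:**
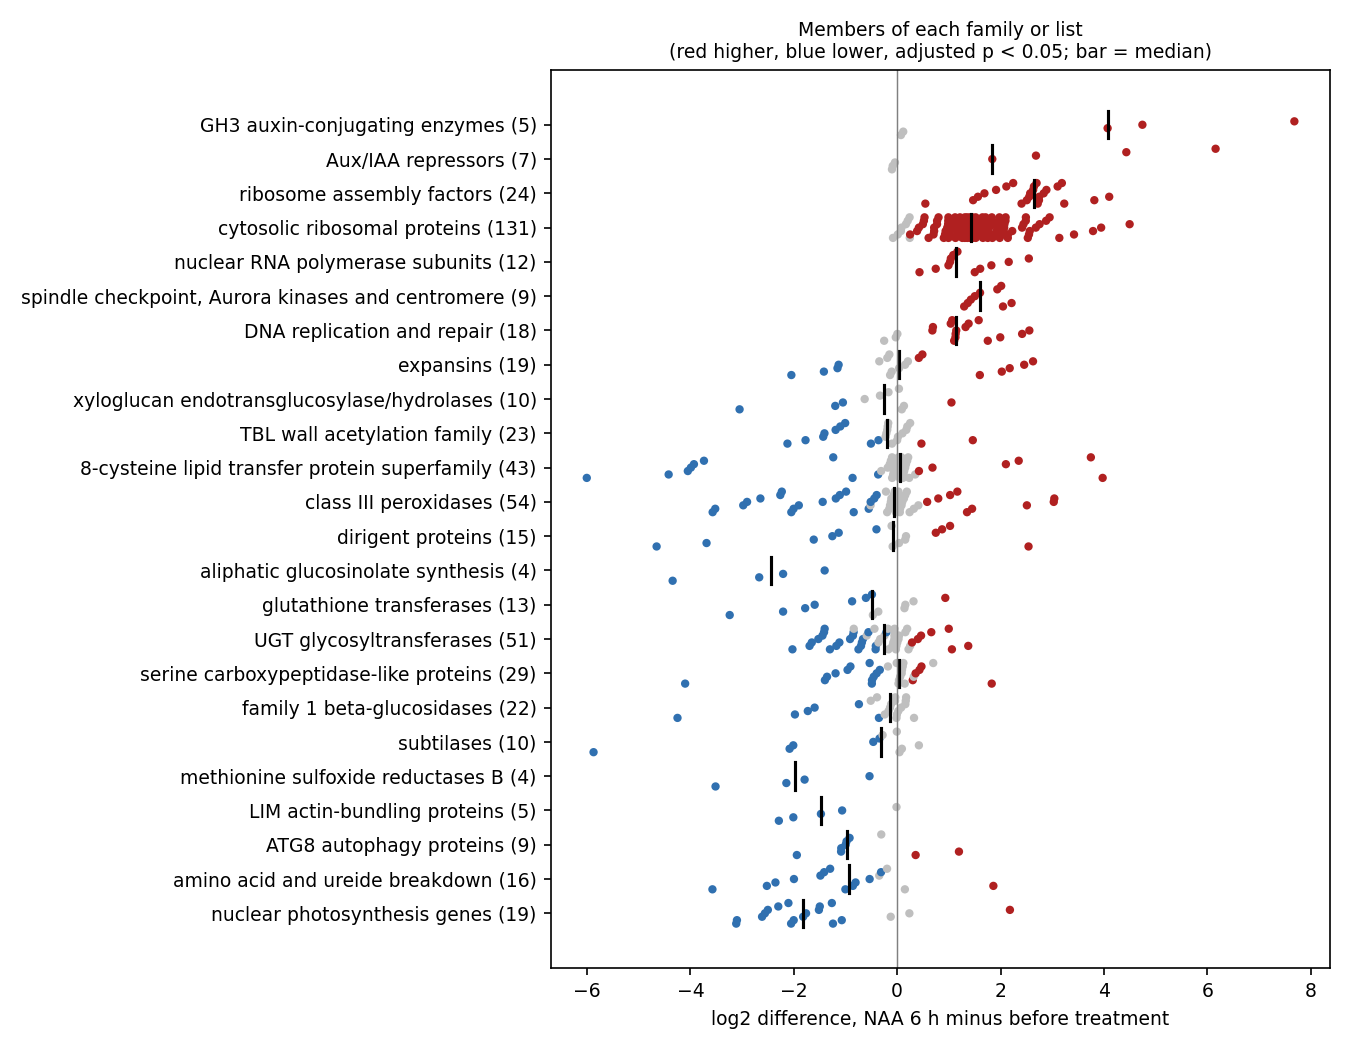
Log2 difference between NAA 6 h and before treatment for each measured member of 24 families and lists (points), with the number measured in brackets and the median as a bar; red and blue are called higher and lower, and vertical scatter only separates points. Ribosome, polymerase, spindle and replication genes lie to the right, photosynthesis, glucosinolate and MSRB genes to the left, and peroxidases and lipid transfer genes spread both ways.

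The steepest losses, which can be read only in genes well above the lower quartile before treatment, reached 94.3-fold. The samples were whole root sections, and fewer cells of a type cannot be told apart from less RNA per cell in any loss below. AT4G30450 read 12.57, 12.84 and 12.61 before treatment and 6.15, 6.15 and 6.06 after NAA, 94.3-fold lower (log2 −6.56, SE 0.20, adjusted p = 1.85e-11). AT3G53980, on the list of 8-cysteine lipid transfer proteins, read 14.00, 13.94 and 13.93 before treatment and 7.79, 8.51 and 7.55 after NAA, 64.2-fold lower (log2 −6.01, SE 0.17). At 2 h it was still at 13.71, 13.85 and 13.75. ATSBT5.2, a subtilisin-like protease, fell from 10.18, 10.36 and 10.23 to 4.41, 4.24 and 4.49, below the lower quartile (log2 −5.87, SE 0.21). The other steep losses were AT1G49470 (−5.95), AT3G45160 (−5.60), AT3G62040 (−5.48), AT3G01260 (−5.46), AT4G30460 (−5.40), AT1G25230 (−5.19), AT3G20015 (−4.81) and AT1G31050 (−4.69). All 24 genes at least 16-fold lower were lower than with naxillin at 6 h, 23 of them lower than at 2 h, and 8 had moved by less than 2-fold at 2 h. These genes were picked for low values on the same NAA 6 h arrays, so the counts against naxillin and 2 h are a description.

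Large secreted-protein families held both rises and falls. Of 43 lipid transfer genes, 6 rose and 9 fell (14.0% and 20.9%, both under the shares among all named genes). Their median (0.05) was near 0, and their median level before treatment was 4.81, near the lower quartile. AT1G48750, AT4G33550 and AT3G18280 fell by 4.42 (SE 0.13), 4.05 (SE 0.10) and 3.99 (SE 0.10), while AT4G22470 rose by 3.98. Under poly-A scaling 22 lipid transfer genes were higher and 8 lower. Of 54 class III peroxidases, which oxidise phenolics in the wall, 9 rose and 19 fell (16.7% and 35.2%); their median of −0.06 was 0.18 under poly-A scaling, with 18 higher and 14 lower. AT4G33420 went from 11.95, 11.93 and 12.10 to 8.38, 9.14 and 7.90 (adjusted p = 1.59e-08), and AT2G18980 from 9.63, 9.70 and 10.34 to 12.89, 13.001 and 12.90 (adjusted p = 5.97e-08). Of 15 dirigent proteins, which guide phenolic coupling, 4 rose and 6 fell, with a median of −0.09 that was 0.16 under poly-A scaling. AT4G11190 of that list fell from 10.38, 9.20 and 9.84 to 4.95, 5.19 and 5.31 (adjusted p = 8.11e-08). Without replicate 2 before treatment, 2 dirigent genes were called higher.

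Among genes of specialised metabolism, all 4 measured genes on a list of aliphatic glucosinolate synthesis fell (median −2.44): BCAT4, the aminotransferase that starts methionine chain elongation, AT2G31790, GSTU20 and UGT74B1. BCAT4 read 10.77, 9.43 and 11.59 before treatment and 5.72, 6.90 and 6.14 after NAA, 20.3-fold lower (log2 −4.34, SE 0.53, adjusted p = 7.83e-06). Of 13 glutathione transferases 1 rose and 7 fell (7.69% and 53.8%), GSTU26 by 3.24 (SE 0.26), and GSTU20 stands in both groups. The 1 rise, GSTU25 by 0.93, became 4 under poly-A scaling and 2 with the replicate number as a block, with median centring and without NAA 6 h replicate 3 or without replicate 1 before treatment. Of 51 UGT glycosyltransferases 7 rose and 21 fell (13.7% and 41.2%), and of 29 serine carboxypeptidase-like proteins 5 rose and 12 fell (17.2% and 41.4%), scpl31 by 4.10 (SE 0.31). The UGT rises were 4 without NAA 6 h replicate 1 or without replicate 3 before treatment. The carboxypeptidase-like rises were 3 without NAA 6 h replicate 3 or without replicate 2 before treatment. Under poly-A scaling 14 UGT genes rose and 17 fell, and the split of the carboxypeptidase-like genes turned to 13 rises and 7 falls. Of 22 family 1 beta-glucosidases 6 fell (27.3%, near the 26.7% among all named genes) and 0 rose, or 6 rose and 5 fell under poly-A scaling. BGLU44 fell by 4.25 (SE 0.17) to below the lower quartile. Without NAA 6 h replicate 3, or without replicate 1 before treatment, 1 beta-glucosidase rose. Of 16 SWEET sugar carriers 1 rose (0 without replicate 3 before treatment, 4 under poly-A scaling) and 4 fell, which is 25.0%, near the share among all named genes; SWEET11 went from 8.12, 10.11 and 8.93 to 4.87, 5.09 and 5.23 (adjusted p = 1.6e-05).

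All 4 measured B-type methionine sulfoxide reductases, which repair oxidised methionine, fell (median −1.97), MSRB5 from 12.95, 12.92 and 12.97 to 9.15, 10.07 and 9.06 (adjusted p = 4.85e-09). Of 5 LIM proteins, which bundle actin, 4 fell, WLIM2a by 2.29 (SE 0.18). Of 9 ATG8 genes, whose products coat autophagosomes, 6 fell and 2 rose (66.7% and 22.2%). ATG8E was lower by 1.94 (SE 0.26) and ATG8G higher by 1.20 (SE 0.16). On a list of amino acid and ureide breakdown, 12 of 16 fell and 1 rose (median −0.93; 2 rose under poly-A scaling). MGL, which breaks down methionine, read 8.71, 10.15 and 9.34 before treatment and 5.63, 6.72 and 5.13 after NAA (log2 −3.57, SE 0.63, adjusted p = 0.000229). ALN, an allantoinase of ureide breakdown, fell by 2.52 (SE 0.18) and AAH by 2.00 (SE 0.32).

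Nuclear photosynthesis genes, measurable in these roots, fell in 16 of 19 cases and rose in 1 (median −1.82; 2 rose under poly-A scaling). PSAN, a photosystem I subunit, read 8.89, 9.51 and 9.11 before treatment, 7.54, 7.06 and 6.79 at 2 h and 5.73, 6.20 and 6.25 at 6 h (log2 −3.11, SE 0.31, adjusted p = 1.24e-06). LHCB4.2, an antenna protein, was 8.57-fold lower (log2 SE 0.36) and RCA, Rubisco activase, 4.01-fold lower (log2 SE 0.17). These last 2 are the measured genes of a list of 12 shoot markers. RCA was at 11.06, 11.27 and 10.91 before treatment and at 8.84, 9.29 and 9.09 after NAA, while LHCB4.2 was at 8.39, 8.70 and 8.02 and at 4.96, 5.57 and 5.27; the part of other tissue in this loss was not tested.

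Markers of mature root cell types were mostly without a named probe set. Of 15 root hair markers 2 were measured, EXPA7 and EXPA18, and both fell. Of 21 genes of the Casparian strip and suberin 1 was measured: GSO1, a receptor kinase that guards the strip, fell from 9.22, 8.76 and 8.80 to 8.24, 8.09 and 8.003 (log2 −0.81, SE 0.12, adjusted p = 6.39e-05). Of 15 xylem genes GUT2, which elongates xylan, was not called (−0.28, SE 0.15, adjusted p = 0.126). Both measured cytokinin response regulators, RR16 (−0.24) and ARR15 (−0.14), were not called and lay near or below a level of 5.2. RR16 was called lower with the 6 arrays alone (adjusted p = 0.0466), after a repeated quantile normalisation (0.0496), with a trended prior (0.0475) and with array weights (0.0182).

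Against NAA at 2 h, 4537 probe sets (19.9%) were higher at 6 h and 4917 (21.6%) lower; among named genes the shares were 19.7% and 18.7%, and at 2 h against before treatment they were 9.49% and 14.6%. No change of the spindle genes was found at 2 h: 0 of 9 were called by limma, 0 had an unadjusted p under 0.05, and their median was −0.08. All 9 were higher at 6 h than at 2 h. Of the replication and repair genes 0 of 18 were called at 2 h by limma, though 3 had an unadjusted p under 0.05. At 6 h 15 were higher than at 2 h. Ribosome assembly genes were earlier, with 22 of 24 called at 2 h (median 1.04) and all 24 higher at 6 h than at 2 h. Of the ribosomal proteins 37 of 131 were called at 2 h (median 0.34) and 122 were higher at 6 h than at 2 h. Photosynthesis genes were already lower in 14 of 19 cases at 2 h (median −0.80), and 14 of the 19 were lower at 6 h than at 2 h.

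**Figure D4:**
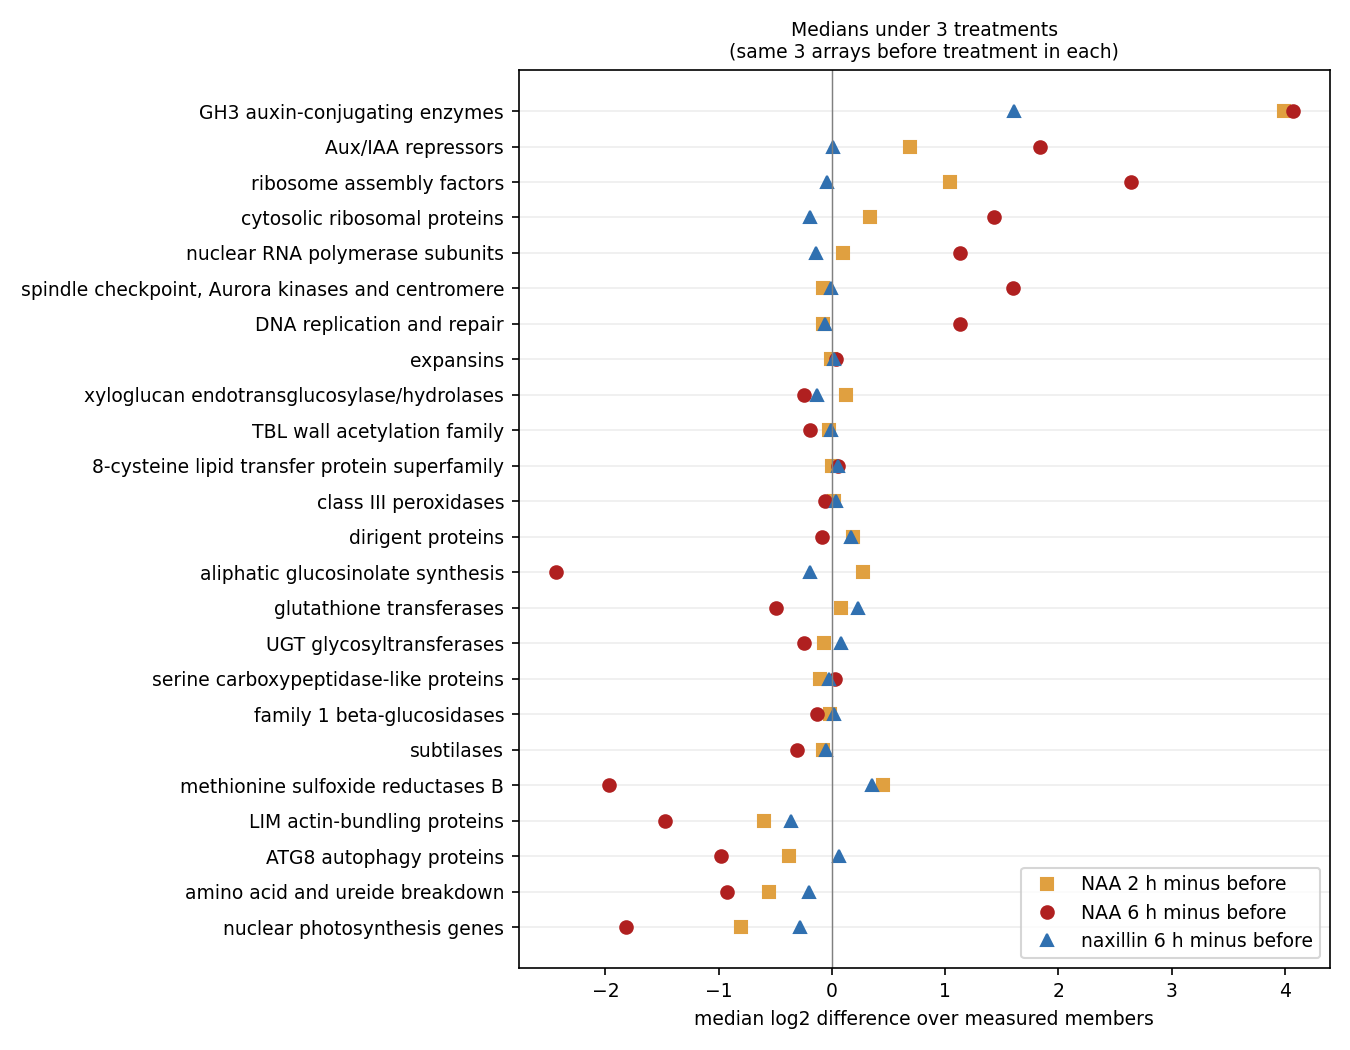
Median log2 difference against before treatment over the measured members of 24 families and lists for NAA 2 h (squares), NAA 6 h (circles) and naxillin 6 h (triangles), all against the same 3 arrays. Spindle and replication medians lie near 0 at NAA 2 h and naxillin 6 h, while GH3 medians are alike at 2 h and 6 h of NAA (3.99 and 4.07).

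Of the 13356 named genes, 81 were called higher at 2 h and lower at 6 h against before treatment, and 36 the other way. The genes described next were 3 of the 81. MSRB9 read 7.32, 7.61 and 8.13 before treatment, 8.81, 10.29 and 10.03 at 2 h and 5.33, 5.61 and 5.69 at 6 h. It was called higher at 2 h (2.02, adjusted p = 0.0023) and lower at 6 h (log2 −2.14, adjusted p = 0.000414), and no group of arrays overlapped another. SCPL45 read 9.32, 8.56 and 8.88, then 10.19, 9.74 and 10.05, then 7.40, 7.74 and 7.43, with the same calls. EXPA7, the root hair expansin, read 7.20, 6.93 and 6.47, then 7.40, 8.05 and 8.21, then 5.67, 5.55 and 5.98. The differences between 6 h and 2 h were −4.17, −2.47 and −2.15, given as a description because genes picked for opposite calls must differ in this direction. BCAT4 and GSTU20 were not called at 2 h (0.46 and 0.73) and were lower at 6 h than at 2 h by 4.81 and 2.93 (adjusted p = 6.92e-06 and 0.000175). All these comparisons share the NAA 6 h or the untreated arrays. The 3 arrays of naxillin at 2 h were not tested here. Their means were 10.44 in MSRB9, 9.46 in SCPL45 and 8.44 in EXPA7, against 7.69, 8.92 and 6.87 before treatment.

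**Figure D5:**
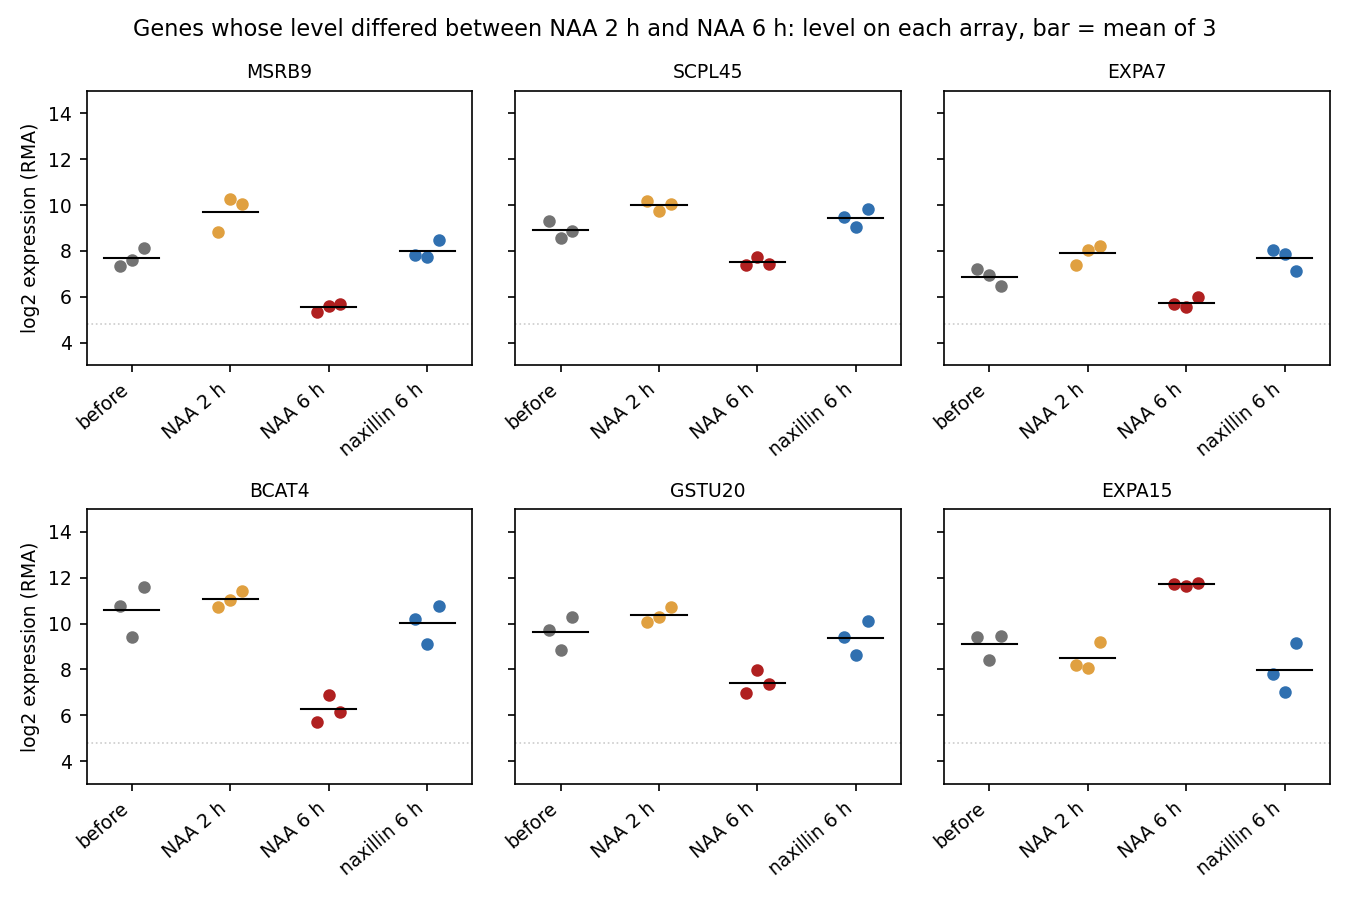
Log2 expression on each array (points) and group mean (bars, n = 3) of 6 genes that differed between NAA 2 h and NAA 6 h; the dotted line is the highest lower quartile of any array (4.80). MSRB9, SCPL45 and EXPA7 lie above their starting level at 2 h and below it at 6 h, BCAT4 and GSTU20 fall after 2 h, and EXPA15 rises after 2 h.

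Far fewer probe sets were called with naxillin at the same time. Only 219 probe sets (0.963%) were called for naxillin at 6 h against before treatment, while NAA and naxillin at 6 h differed at 5334 (23.5%) higher with NAA and 6177 (27.2%) lower; among named genes these shares were 22.6% and 24.5%. The doses differ, so the 2 compounds are set side by side and not ranked. All 24 ribosome assembly genes, 123 of 131 ribosomal proteins, all 12 polymerase subunits and all 9 spindle genes were higher with NAA than with naxillin. AT3G53980 stood at 13.96, 13.94 and 13.94 with naxillin and at 7.79, 8.51 and 7.55 with NAA (−5.99, adjusted p = 9.38e-12). AT4G11190 stood at 10.68, 10.55 and 11.48 with naxillin, none below the highest array before treatment. GH3.1 stood at 6.48, 6.28 and 6.37 with naxillin, between its level before treatment and that with NAA. AT3G53980, AT4G11190 and GH3.1 were picked for extreme values on the same NAA 6 h arrays. Their differences from naxillin, and the adjusted p given, are therefore a description.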

How the data were processed

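The authors deposited a single table of log2 expression for the probe sets of Affymetrix ATH1 arrays. RMA from the affy package, version 1.36.0, made them, per the submitters' processing notes; it subtracts background, gives all arrays the same quantiles and sums up the probes of each set. Per the labels' protocols, 2 µg of total RNA was spiked with bacterial control transcripts before amplification. The values were used as deposited. Tests did not include the 64 control probe sets.

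A linear model with a mean for each group was fitted with limma 3.58.1 (R 4.3.3) to the 15 arrays, leaving 10 residual degrees of freedom. Moderated tests were two-sided, with Benjamini-Hochberg adjustment over 22746 probe sets and a threshold of 0.05. The SE is the moderated one; n = 3 arrays per group throughout, and this number limits the precision. The fit was tested on simulated data. Names came from GEO's platform annotation, for probe sets to which it assigns a single gene (13513 probe sets, 13356 genes, 13436 probe sets matched to RefSeq TAIR10.1); 503 named several and 8730 none. Where several probe sets named a gene (146 genes), the one with the highest mean was used. Family members can lie among the unnamed probe sets, so counts describe measured members. RMA values do not set one gene's level against another's per length.

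The members and lists were chosen with earlier results of these data known. Of 20 lists by symbol with 361 entries, 36 entries had a named probe set. A further 7 lists by locus tag and 24 families by symbol pattern were added after seeing the data. All 7 lists by locus tag were written from general knowledge, since the files give these tags no function. They include the glucosinolate, peroxidase, lipid transfer, dirigent and amino acid breakdown lists. Named were the 12 largest rises and 12 largest falls among called genes whose arrays did not overlap, and from each list at most 4 called members, those that changed most, or the 2 with the smallest p if none was called. Other members named show the range of a family or were chosen after their values were seen. The 164 genes followed through the alternatives are those picked by the rule or chosen after their values were seen. Members named only to show the range of a family are not among them. Within a group, replicate numbers mark 3 independent experiments. Deviations of same-numbered arrays of NAA 6 h and before treatment had r = 0.158 in each of 3 pairs. With NAA 2 h r was 0.122 to 0.331, and with naxillin 6 h 0.295 to 0.309. Arrays of different numbers were not compared. Whether a number marks the same experiment across groups was therefore not tested, and the main fit does not pair arrays. Alternatives were a replicate block, the 6 arrays of the contrast alone, other scalings and priors, array weights, no dim probe sets (15164 remained), a threshold of 0.01, averaging the probe sets of a gene, and omitting single arrays. Plots were made in Python 3.11.15 with matplotlib 3.10.9.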

Additional observations from a re-analysis of the deposited data

Results flagged for a closer look

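Of the 164 genes followed through the alternatives, 3 were called higher after 2 h of NAA and lower after 6 h against before treatment. So were 81 of all 13356 named genes. The level at 6 h minus that at 2 h was −4.17 in MSRB9, −2.47 in SCPL45 and −2.15 in EXPA7 on the log2 scale. Opposite calls on the same arrays fix the sign of this difference, so it is a description and no further evidence.

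The spiked-in poly-A control probe sets, which are in no gene comparison, also differed. Their mean was 7.37 ± 0.06 (SD, n = 3) after 6 h of NAA and 7.62 ± 0.02 before treatment, a difference of −0.24. It was 7.53 ± 0.05 at 2 h of NAA and 7.68 ± 0.07 at 6 h of naxillin. The same amount of total RNA was labelled per sample, and the cause was not tested.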

How the results depend on the processing

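Scaling on the poly-A controls moved the counts most: 9973 probe sets were then higher than before treatment (5181 as deposited), 7341 higher than at 2 h (4537), and 12045 higher and 3652 lower than with naxillin at 6 h (5334 and 6177). With the replicate number as a block, 5406 were higher and 7009 lower than before treatment. The block changed the call of none of the 164 genes followed. It moved no list count by over 1.5 times except those of auxin conjugation falls (0 to 1) and glutathione transferase rises. Leaving out 1 array gave 4743 to 5021 higher and 6123 to 6264 lower.

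Of 2449 values of the 164 genes followed through the alternatives, 2427 kept direction and side of the threshold. Only uncalled genes turned direction, all with poly-A scaling: SIM to 0.095, RR16 to 0.001, ARR15 to 0.098 and PYK10 to 0.124; the cause was not tested. RR16 gained a call under 4 alternatives (adjusted p = 0.0182 to 0.0496) and PYK10 with a repeated quantile normalisation (−0.262, 0.0029). SBT3.12 lost its call under poly-A scaling (0.169). Calls lost without 1 array were AT1G14130 (adjusted p = 0.0526 without NAA_6h replicate 2), SBT3.12 (0.0841 without NPA_0h replicate 3) and CHR18 (0.0693 to 0.0994 without NAA_6h replicate 1 or 2 or NPA_0h replicate 2 or 3). GUT2 gained one with array weights (0.018), without NAA_6h replicate 3 (0.0466) or NPA_0h replicate 2 (0.0199). Of 1152 list counts 1091 stayed within 1.5 times. Signals near the lower quartile limit what falls could be measured.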

Other observations

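A few other named genes moved steeply at 6 h and were chosen after their values were seen. PR-1-LIKE, a gene named for its likeness to a pathogenesis-related protein, read 4.44, 4.36 and 4.43 before treatment, 4.29, 4.31 and 4.30 at 2 h and 9.37, 9.03 and 9.71 at 6 h, a difference of 4.96 (SE 0.13, adjusted p = 3.68e-12 by limma) from a level under the lower quartile. AT1G05577 behaved alike in time, with 4.28, 4.02 and 4.15, then 4.19, 4.24 and 4.43, then 9.16, 9.38 and 9.64. HIS1-3, a linker histone known from drought, went from 9.27, 10.36 and 9.60 to 5.56, 6.24 and 5.51, 15.7-fold lower (log2 −3.97, SE 0.38). OCT1, an organic cation carrier, fell by 4.45 on the log2 scale (SE 0.36), and by 3.28 already at 2 h. LCR69, a defensin-like gene, went from 13.78, 13.72 and 13.82 to 11.29, 11.85 and 11.20 (adjusted p = 6.85e-09). Of 12 defensin-like genes measured, 3 fell (25.0%, near the 26.7% among all named genes) and 1 rose (2 under poly-A scaling, where the median turned from −0.15 to 0.10). Of 15 IQD proteins, which bind calmodulin and microtubules, 5 were higher and 5 lower (33.3% each). IQD30 differed by −2.12 and iqd15 by 2.07. Without dim probe sets, where dim members are not tested, 2 of the family were higher.

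Of 5909 pairs of genes that neighbour each other in TAIR10.1 and both have a named probe set, 4 pairs changed at least 8-fold in both members, and in all 4 both members moved the same way. AT4G37290 and AT4G37295 rose by 6.04 and 5.58, AT3G57940 and AT3G57950 by 3.36 and 5.49, AT4G30450 and AT4G30460 fell by 6.56 and 5.40 on the log2 scale, and AT2G16980 and AT2G16990 by 3.25 and 3.65. Whether probes of one member also bind transcripts of the other was not tested. The number of such pairs among genes that are not neighbours was not worked out.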
